A study of Mus musculus with 4 samples.

Results

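The genes described here encode the RAB, VPS, sorting nexin (SNX), syntaxin (STX) and VAMP proteins of the endosomal system. They were taken as all protein-coding genes of the GRCm38 annotation whose symbol is Rab, Vps, Snx, Stx or Vamp followed by a digit, with 3 symbols (Rab7, Stx17 and Vamp8) left out. This gave 154 of 21900 protein-coding genes, namely 68 Rab, 35 Vps, 30 Snx, 14 Stx and 7 Vamp genes. The choice rests on gene names only, so it also takes in RAB effectors such as Rab11fip1 and a chromatin protein, Vps72. Vamp7 is placed in the annotation only at coordinates that lie outside the sequenced part of its chromosome, and the values below are for the other 153 genes.

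Deaf1 is a transcription factor with a SAND DNA-binding domain. Its positions on chromatin were mapped by ChIP-seq (chromatin immunoprecipitation and sequencing) in C2C12, an established mouse myoblast line grown in serum-containing medium, in 2 libraries made with an anti-Deaf1 antibody, and 2 input libraries were made without antibody. No treatment, genotype or second condition was compared, and 1 cell line in growth medium was the only model. The peak lists of the ChIP libraries held 1860 peaks in replicate 1 and 3126 in replicate 2, with a median of 22 and 23 fragments at the summit, and the authors' combined list held 1550 regions seen in both. The labels do not say that the replicates came from separate cultures, so the spread between them may be technical. Expression was not analysed here, and the myoblast label was not checked against marker genes. The specificity of the antibody was not checked here either, so a bound gene means a gene with a peak in these libraries. A gene is called bound below when a region lies within 1 kb of a start or end of its annotated span.

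As background, RAB proteins are small GTPases that give each membrane compartment its identity and recruit the machinery that moves or fuses it. RAB5 marks early endosomes, RAB11 recycling endosomes and RAB7 late endosomes. VPS proteins, named for yeast mutants in vacuolar protein sorting, form tethering complexes (HOPS, CORVET, GARP), the sorting complexes ESCRT and retromer, and lipid transfer proteins. Sorting nexins bind phosphoinositides and shape or sort endosomal tubules, while syntaxins and VAMPs are SNARE proteins that fuse membranes. The same pathways feed the lysosome, where autophagy ends.

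Promoter sequences were read from a RefSeq table on GRCm38.p6, which matched 115 of the 153 genes and 12 of the 15 bound ones. The 10 printed below carry the contrasts described later. They are the RAB5 trio, of which Rab5b was not bound, the RAB11 pair, 2 subunits of HOPS, the ESCRT gene Vps25, and Vps52 and Stx16, which had the largest mean fold enrichment of the 15 bound genes. Each runs 5′ to 3′ on the gene's strand over 150 bases, 120 before the start site and 30 from it on. Capitals mark TTCG on either strand (read as TTCG or CGAA), the short element known for the Deaf1 SAND domain, and CGGAAG on either strand (read as CGGAAG or CTTCCG). Neighbouring matches run together in Vps16, and the 2 strands of CGGAAG overlap in Rab11a. On GRCm38.p6 the stretches are chr17:53479114-53479263 (Rab5a, plus strand), chr10:128696239-128696388 (Rab5b, minus), chr11:100738186-100738335 (Rab5c, minus), chr9:64737727-64737876 (Rab11a, minus) and chr17:33760457-33760606 (Rab11b, minus). The others are chr2:130424200-130424349 (Vps16, plus), chr2:119288622-119288771 (Vps18, plus), chr11:101253587-101253736 (Vps25, plus), chr17:33955762-33955911 (Vps52, plus, its start site nearest the summit) and chr2:174076182-174076331 (Stx16, plus).
Rab5a: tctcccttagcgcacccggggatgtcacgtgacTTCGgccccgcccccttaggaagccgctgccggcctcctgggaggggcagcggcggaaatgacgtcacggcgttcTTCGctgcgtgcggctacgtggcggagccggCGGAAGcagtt
Rab5b: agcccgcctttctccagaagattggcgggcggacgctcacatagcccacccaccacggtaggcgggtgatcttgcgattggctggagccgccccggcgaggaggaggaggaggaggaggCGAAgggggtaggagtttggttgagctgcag
Rab5c: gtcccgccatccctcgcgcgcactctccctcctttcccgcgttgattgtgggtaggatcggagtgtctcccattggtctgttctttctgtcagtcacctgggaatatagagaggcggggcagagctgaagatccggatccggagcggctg
Rab11a: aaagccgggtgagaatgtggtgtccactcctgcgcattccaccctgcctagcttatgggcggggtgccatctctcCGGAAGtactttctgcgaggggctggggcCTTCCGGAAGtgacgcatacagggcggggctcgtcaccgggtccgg
Rab11b: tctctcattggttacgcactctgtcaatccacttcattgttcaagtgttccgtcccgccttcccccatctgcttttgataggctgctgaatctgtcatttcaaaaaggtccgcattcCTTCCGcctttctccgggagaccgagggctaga
Vps16: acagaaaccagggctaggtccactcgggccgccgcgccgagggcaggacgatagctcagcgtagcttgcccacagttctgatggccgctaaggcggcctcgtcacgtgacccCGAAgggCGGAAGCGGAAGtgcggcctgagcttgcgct
Vps18: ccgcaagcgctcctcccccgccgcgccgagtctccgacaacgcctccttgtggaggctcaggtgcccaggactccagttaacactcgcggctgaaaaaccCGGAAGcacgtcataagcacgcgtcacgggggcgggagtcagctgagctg
Vps25: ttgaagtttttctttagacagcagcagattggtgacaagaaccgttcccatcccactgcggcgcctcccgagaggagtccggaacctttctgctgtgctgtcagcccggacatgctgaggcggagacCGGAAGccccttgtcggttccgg
Vps52: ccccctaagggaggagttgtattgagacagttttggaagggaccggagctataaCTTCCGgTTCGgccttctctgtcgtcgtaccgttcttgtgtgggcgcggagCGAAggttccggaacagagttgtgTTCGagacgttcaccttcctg
Stx16: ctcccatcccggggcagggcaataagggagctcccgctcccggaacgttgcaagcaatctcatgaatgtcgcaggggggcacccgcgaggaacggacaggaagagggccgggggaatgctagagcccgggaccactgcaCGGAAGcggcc

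Deaf1 regions were found at 15 of the 153 genes. These were 7 Rab symbols (Rab5a, Rab5c, Rab11a, Rab11b, Rab13, Rab24 and Rab5if), 6 Vps genes (Vps16, Vps18, Vps39, Vps51, Vps52 and Vps9d1), Snx29 and Stx16. That is 9.80% of the genes (95% exact binomial interval 5.59% to 15.7%), against 7.02% of all 21779 protein-coding genes placed on assembled chromosomes and 7.0% of the 21626 genes outside the 5 families. The interval contains the share of all genes, so the families as a whole were not set apart from other genes by this count. Gene sharing of a region and the small number of libraries are not covered by such an interval.

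Family by family, the Vps genes had the highest share, 6 of 35 (17.1%, interval 6.56% to 33.6%). Rab genes followed with 7 of 68 (10.3%, 4.24% to 20.1%). Of the 14 syntaxin genes 1 was bound (7.14%, 0.181% to 33.9%), and of the 30 sorting nexin genes also 1 (3.33%, 0.0844% to 17.2%). No Vamp gene was bound, and 0 of 6 allows a share of up to 50% by the limit of 3 counts (exact binomial upper limit 45.9%). The intervals of all 5 families overlap one another and contain 7.02%.

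The list of replicate 1 alone gave nearly the same picture, with 16 of the 153 genes (10.5%, 6.10% to 16.4%) against 7.56% of all genes. The longer list of replicate 2 gave 29 (19%, 13.1% to 26.1%) against 11.3% of all genes, and there the interval lies above the share of all genes. The families were chosen with earlier results of these data known, so that interval is no independent evidence. In replicate 2 the Vps genes reached 10 of 35 (28.6%, 14.6% to 46.3%), the Rab genes 11 of 68 (16.2%), the Snx genes 5 of 30 (16.7%), the Stx genes 2 of 14 (14.3%) and the Vamp genes 1 of 6. The combined list holds only regions seen in both replicates, so its 15 genes recur in each single list almost by construction. The irreproducible discovery rate (IDR) of a region is the estimated share of irreproducible regions among those ranked at least as high. At an IDR of at most 0.05, only Stx16, Vps51 and Vps18 were left, 1.96% of the genes against 3.15% of all genes.

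**Figure D1:**
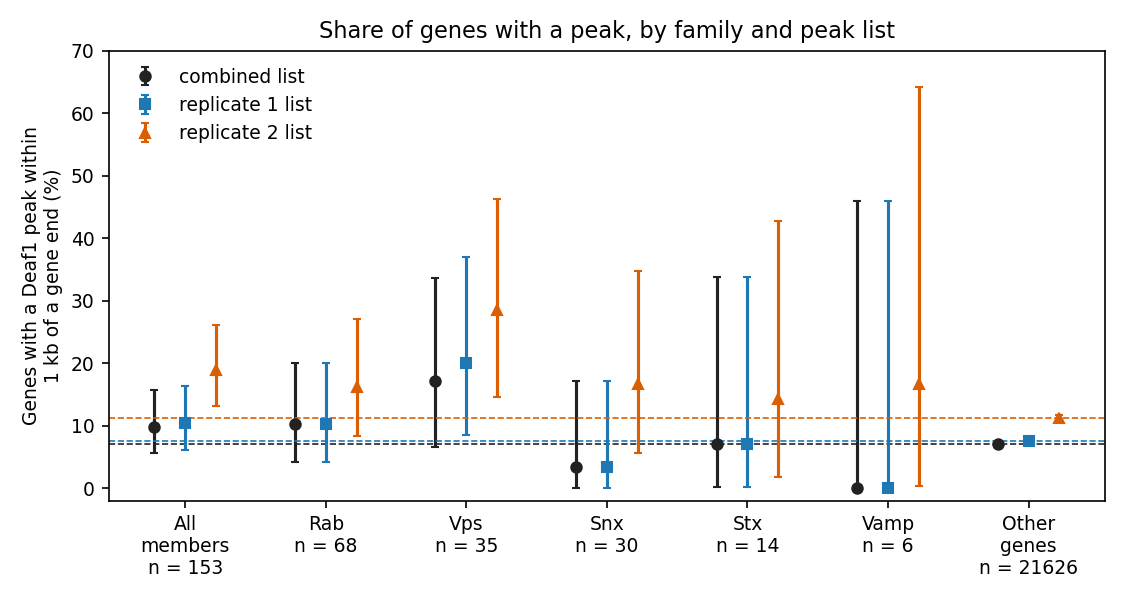
Share of genes with a Deaf1 peak within 1 kb of a gene end (%, vertical axis) for the 153 genes, each family and all other genes, in the combined list and in each replicate's own list. Bars are 95% exact binomial intervals and dashed lines the share of all protein-coding genes in the same list (7.02%, 7.56% and 11.3%). The Vps genes have the highest point in every list.

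Among the 58 RAB GTPases, 6 were bound, beside 7.02% of all genes. Rab5a and Rab5c, which encode GTPases of early endosomes, had regions of similar height. Height is given as the number of fragments stacked at the summit (the pileup), and fold enrichment as the pileup over the background expected there, each plus 1. At Rab5a the pileup was 22 fragments (95% exact Poisson interval 13.8 to 33.3) in replicate 1 and 24 (15.4 to 35.7) in replicate 2, and the mean fold enrichment was 8.11 ± 0.022 (SD, n = 2). Rab5c had 21 fragments (13.0 to 32.1) and 23 (14.6 to 34.5), with a mean fold of 6.82 ± 0.21 (SD, n = 2). The third member of the trio, Rab5b, had no peak at either end in any of the 3 lists. Peak lists carry no value where no peak was called, so occupancy at Rab5b can be given only as below the caller's threshold, where the lowest called summit had 10 fragments in either library.

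Both RAB11 genes, whose products act at recycling endosomes, were bound. Rab11a had 24 fragments (15.4 to 35.7) in each replicate and a mean fold of 6.64 ± 0.33 (SD, n = 2). Rab11b had 21 (13.0 to 32.1) and 29 (19.4 to 41.6) and a mean fold of 7.88 ± 2.6 (SD, n = 2). None of the 5 genes for RAB11 family interacting proteins (Rab11fip1 to Rab11fip5), the effectors of these GTPases, had a region at an end, although Rab11fip4 had a weak one inside its span (17 and 18 fragments), 32207 bp from the nearer end.

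Of the other 3 bound genes with a Rab symbol, Rab24, an atypical RAB linked to autophagy, had 27 fragments (17.8 to 39.3) and 35 (24.4 to 48.7). Its fold was 7.70 in replicate 1 and 4.63 in replicate 2, where the background expected at the summit was higher (6.77 against 2.64 fragments). Rab13, known for traffic to cell junctions, had 27 (17.8 to 39.3) and 30 (20.2 to 42.8) fragments, and its fold likewise fell from 7.70 to 4.56 beside backgrounds of 2.64 and 5.80. Rab5if, an interaction partner of RAB5 and no GTPase, had 14 (7.65 to 23.5) and 27 (17.8 to 39.3) fragments and the lowest fold of the 15 in replicate 1, 4.13. Of the remaining GTPase genes, 4 (Rab1a, Rab2b, Rab26 and Rab40c) had a peak at an end in replicate 2 only, and 48, among them Rab1b, Rab6a, Rab7b, Rab8a, Rab9 and Rab10, had none in any list.

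Of the 6 bound Vps genes, 5 encode subunits of tethering complexes, and Vps9d1 does not. Such subunits are also common among all 35 Vps genes, with 8 in HOPS, CORVET and a related branch and 5 in GARP and its relative EARP. HOPS and CORVET share a core and tether late and early endosomal membranes. Of the 8 genes with a VPS symbol in these complexes and their VPS33B branch, 3 were bound, beside 7.02% of all genes. Vps18 had 27 fragments (17.8 to 39.3) in replicate 1 and 32 (21.9 to 45.2) in replicate 2, a mean fold of 8.32 ± 0.87 (SD, n = 2) and an IDR of 0.030. Vps16 had 29 (19.4 to 41.6) and 23 (14.6 to 34.5) fragments and was the only one of the 15 with more fragments in replicate 1. Vps39, the HOPS subunit that contacts RAB7, had 16 (9.15 to 26.0) and 25 (16.2 to 36.9). The counting intervals of the 3 genes overlap in each replicate. Vps11, Vps33a, Vps41 and the CORVET subunit Vps8 had no peak in any list, and Vps33b had one in replicate 2 only.

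GARP tethers carriers that return from endosomes to the trans-Golgi network, and syntaxin 16 is a SNARE of the same step. GARP and the related EARP complex had 2 of 5 genes bound, beside 7.02% of all genes. The genes Vps52 and Vps51 of GARP and Stx16 had the 3 largest mean fold enrichments of the 15. Vps52 had 31 fragments (21.1 to 44.0) and 47 (34.5 to 62.5) and a mean fold of 12.2 ± 4.8 (SD, n = 2). Stx16 had 37 (26.1 to 51) and 39 (27.7 to 53.3) and a mean fold of 11.9 ± 2.3 (SD, n = 2). Vps51 had 33 (22.7 to 46.3) and 47 (34.5 to 62.5), a mean fold of 11.7 ± 0.89 (SD, n = 2) and the lowest IDR of the 15, 0.011. The order of these 3 cannot be told from the data, since they differ by less than their SDs.

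The remaining GARP genes Vps53 and Vps54 had no peak in any list. Vps50, which replaces Vps54 in the related EARP complex, had a peak of 17 fragments (9.90 to 27.2) in replicate 1 only. The syntaxin 16 partners Stx6 and Vamp4 had none in any list. At Vps51 replicate 1 also had a peak of 14 fragments at the other end of the gene, which lies within 1 kb of Tm7sf2 as well.

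Vps9d1, named for a VPS9 domain of the kind that activates RAB5, had 24 (15.4 to 35.7) and 40 (28.6 to 54.5) fragments. Its fold of 4.64 and 13.3 gave the widest spread of the 15, a mean of 8.96 ± 6.1 (SD, n = 2), beside backgrounds of 4.39 and 2.09. Snx29, a sorting nexin with a RUN domain, was the weakest, with 16 (9.15 to 26.0) and 22 (13.8 to 33.3) fragments and a mean fold of 5.00 ± 1.5 (SD, n = 2).

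**Figure D2:**
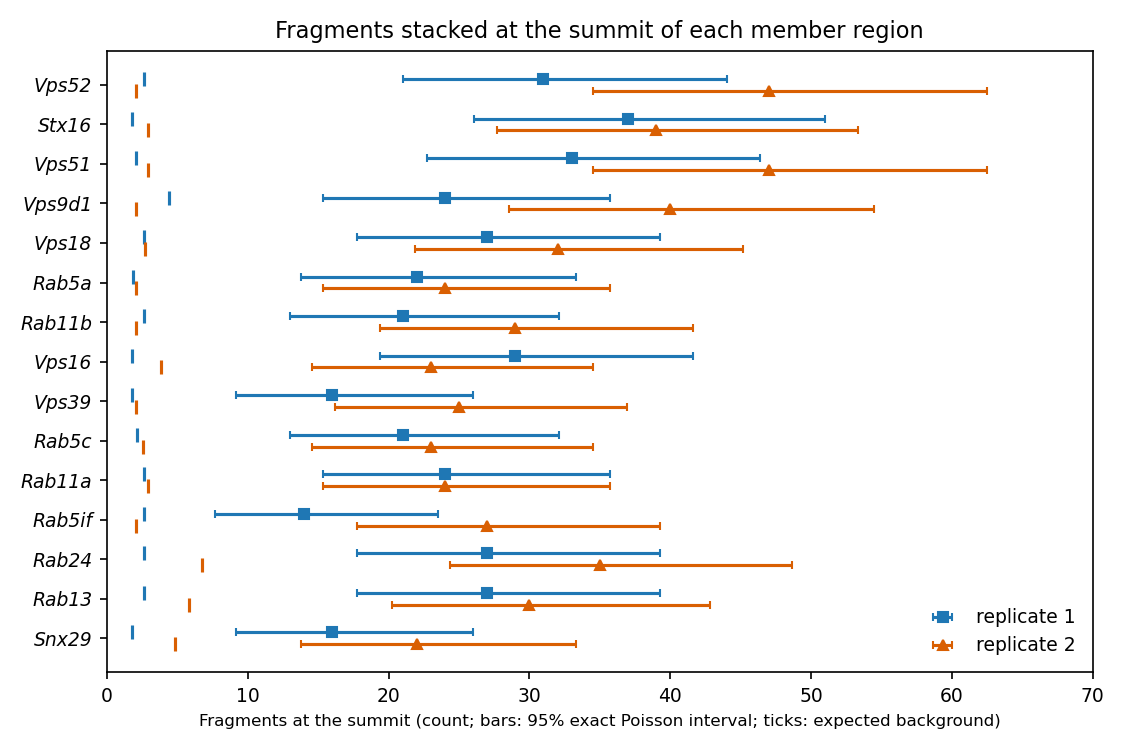
Fragments stacked at the summit (count, horizontal axis) in each replicate for the 15 bound genes, ordered by mean fold enrichment, with 95% exact Poisson intervals as bars and the expected background as ticks. The lowest values are 14 fragments in replicate 1 and 22 in replicate 2, and the intervals of the replicates overlap at every gene.

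Several groups had no bound gene at all in the combined list. These were the 4 retromer genes (Vps26a, Vps26b, Vps29 and Vps35), which sort cargo out of endosomes, the 2 Commander genes (Vps35l and Vps26c), the 4 lipid transfer genes Vps13a to Vps13d and the 9 ESCRT genes with a VPS symbol. Among sorting nexins, none of the 12 SNX-BAR genes, which bend membranes into tubules, and none of the 3 SNX-FERM genes had a region. Snx13, Snx14, Snx19 and Snx25 had none either. Such groups are small, and at 7.02% less than 1 bound gene would be expected in each of them.

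At 15 further genes a peak lay at an end in 1 replicate only, at Vps50 in replicate 1 and at the other 14 in replicate 2. Replicate 2 had the longer list for all genes too (11.3% against 7.56%). The RAB genes were Rab40c (20 fragments), Rab2b (20), Rab1a (19) and Rab26 (18). The VPS genes were Vps4b (22) and Vps37a (15) of ESCRT, Vps33b (18) and Vps13b (16). Sorting nexins with such a peak were Snx16 (18), Snx12 (16), Snx1 (15) and Snx17 (15), and the SNARE genes were Stx4a (14) and Vamp3 (13). With 13 to 22 fragments the replicate 2 summits stood at or below the lowest of the 15 bound genes in that library, which was 22. Some of these peaks also lay within 1 kb of another gene. These genes were Hepacam2 at Vps50, Traf7 at Rab26, Tox4 at Rab2b, Eif2b4 at Snx17 and Gm38529 at Vamp3. The peaks at Rab26 and Stx4a lay 800 bp and 995 bp from an end, near the limit of 1 kb. At Vps13b the fold was 2.91 and the q-value 0.042. The remaining 123 genes had no peak at an end in either list.

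The rule measures from the outer ends of the gene span, and in the combined list its threshold of 1 kb did not cut through a crowd of values. The farthest of the 15 bound regions lay 36 bp from an end, and the nearest regions beyond the threshold lay 1298 bp from Vps25, 1609 bp from Rab40b and 1718 bp from Vps45. With 5 kb in place of 1 kb the count rose to 21 genes, against 8.82% of all genes. With regions anywhere in the span it was 18, against 7.72%, and with each region given to its nearest gene 14, against 5.55%. Vps25, an ESCRT-II subunit, shows what the rule misses. Its region on chr11:101253624-101253925 lay inside the span, and its summits were 18 bp and 12 bp upstream of an annotated start site of the gene, which is not the outer end of the span. It had 40 fragments (28.6 to 54.5) in replicate 1 and 64 (49.3 to 81.7) in replicate 2, an IDR of 0.018 and a mean fold of 13.8 ± 8.8 (SD, n = 2), with folds of 7.60 and 20.1 beside backgrounds of 4.39 and 2.24. Its pileups were above those at each of the 15 bound genes in both replicates. Vps45, which encodes the SM protein that works with syntaxin 16, had a region 575 bp downstream of a start site, with 32 (21.9 to 45.2) and 34 (23.5 to 47.5) fragments and a mean fold of 8.09 ± 3.0 (SD, n = 2).

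Counting from annotated start sites in place of span ends gave 14 of the 115 genes with a promoter entry (12.2%, 95% exact binomial interval 6.82% to 19.6%), against 7.27% of 17377 other genes. This count takes in Vps25 and Vps45 and lacks Vps39, Vps51 and Vps9d1, which had no entry. The lower limit of the interval is below the share of the other genes here too.

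Where a start site was annotated, most bound regions lay close to it. For the 12 bound genes with a promoter entry, the replicate 2 summit was within 50 bp of an annotated start site at 9, and so was the replicate 1 summit. In replicate 2 the summit was upstream of the start at 9 genes and downstream at 3. At Rab11a it was 1 bp upstream, at Rab5a 6 bp downstream, and at Vps16 and Vps18 7 bp downstream. Rab5if lay farthest out, 158 bp and 124 bp upstream. The summits of the 2 replicates were a median of 12 bp apart over the 15 regions, and 14 of the 15 pairs were within 34 bp. The exception was Rab5c, whose summit was 40 bp downstream of the start in replicate 1 and 108 bp upstream in replicate 2.

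**Figure D3:**
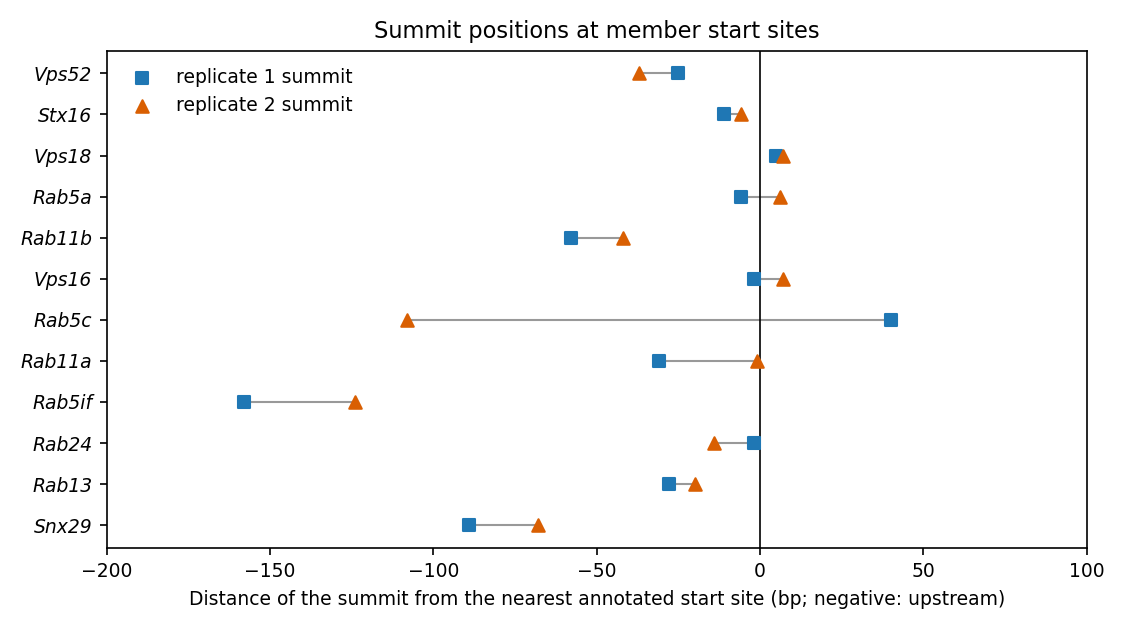
Distance of the summit from the nearest annotated start site (bp, horizontal axis, negative values upstream) for the 12 bound genes with a promoter entry, in each replicate. Lines join the replicates of a gene. The summits of 9 genes in each replicate lie within 50 bp of the start, and Rab5c shows the only wide gap, 148 bp.

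By strength the regions at these genes were ordinary. Their median mean fold was 7.82, against 8.05 for the 1234 other regions at gene ends, and the median pileup was 24 fragments in replicate 1 for both and 29 against 32 in replicate 2. The highest, Vps52, ranked 176th of 1249 gene-end regions by mean fold, and the lowest, Snx29, ranked 1184th. None of the 15 came near the highest mean fold among the other gene-end regions, 46.4. Only 3 of the 15 (20%) reached an IDR of at most 0.05, against 42.5% of the other gene-end regions, and the median IDR was 0.20 against 0.082. Replicate 2 had the higher fold at 7 of the 15 regions and at 800 of the 1234 others. Their median width was 192 bp, against 190 bp for the others.

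**Figure D4:**
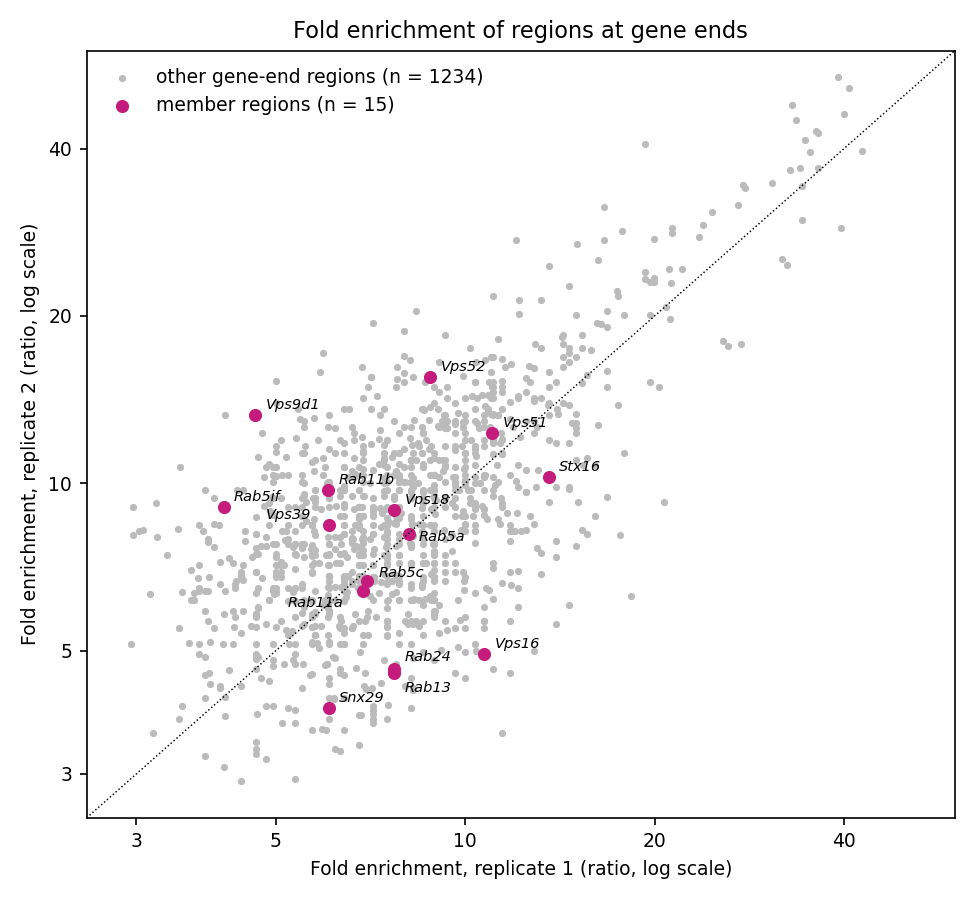
Fold enrichment in replicate 1 (horizontal, log scale) and replicate 2 (vertical, log scale) of regions at gene ends. Named points are the 15 regions at the genes described, grey points the 1234 other regions and the dotted line equality. The named points sit in the body of the cloud, between mean folds of 5.00 and 12.2.

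A region at 2 genes cannot be given to either of them. This was so at 6 of the 15 regions (40%), against 27.3% of the other gene-end regions. Vps52 shared its region with the ribosomal protein gene Rps18 and Rab13 with Rps27. The partners were Tmem262 at Vps51, Pced1a at Vps16, Prelid1 at Rab24 and Zfp276 at Vps9d1. In 5 of these 6 the replicate 2 summit was nearest to the Rab or Vps gene, and at Vps9d1 it was nearer to Zfp276, 8 bp against 35 bp. No second protein-coding gene end lay within 1 kb at Rab5a, Rab5c, Rab11a, Rab11b, Rab5if, Vps18, Vps39, Snx29 and Stx16.

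Other genes of the pathway were counted in 6 lists beside the 7.02% of all genes. In the list of other SNAREs and their regulators 7 of 27 were bound (25.9%, 95% exact binomial interval 11.1% to 46.3%), with the largest mean folds at Bet1l (8.60 ± 0.29), Sec22b (8.52 ± 3.7) and Napa (6.95 ± 0.24; SD, n = 2 for each). Among ESCRT genes without a VPS symbol 5 of 21 were bound (23.8%, 8.22% to 47.2%), led by Chmp2a (11.9 ± 2.9), Snf8 (10.5 ± 0.84), which encodes a further ESCRT-II subunit beside Vps25, and Chmp5 (7.79 ± 1.6; SD, n = 2 for each). The TBC proteins, which switch RABs off, had 7 of 36 genes bound (19.4%, 8.19% to 36.0%), led by Tbc1d9b (21.8 ± 5.4), Rabgap1 (12 ± 1.8) and Tbc1d22a (11.9 ± 4.2; SD, n = 2 for each). The lower limits of these 3 lists lie above 7.02%. The lists were chosen with earlier results of these data known, so these limits are no independent evidence. The counts also depended on the threshold and on the peak list. At an IDR of at most 0.05 the counts were 2 of 27, 1 of 21 and 3 of 36, beside 3.15% of all genes. Such counts are small, and no interval was computed for them. In replicate 2 alone the counts were 10, 7 and 7, beside 11.3%, and there the interval of the TBC list (8.19% to 36.0%) contains the share of all genes. Some of these regions also reach a second gene, Ube2m at Chmp2a, Bag1 at Chmp5, Ric8a at Bet1l and Zbtb26 at Rabgap1. The region at Rabgap1 was nearer to Zbtb26. Likewise, the regions at Sgsm2 of the TBC list and Hgs of the ESCRT list were nearer to Tsr1 and Mrpl12. The limits above count all of these genes as bound.

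In the 3 other lists the interval contains the share of all genes. Genes that activate, modify or extract RABs were bound in 4 of 33 cases (12.1%, 3.40% to 28.2%), with the largest mean folds at Ccz1 (12.9 ± 0.072) and Mon1b (6.95 ± 0.24), which form the complex that activates RAB7, and at Rabgef1 (6.32 ± 0.86; SD, n = 2 for each), an activator of RAB5. The WASH and COMMD-CCDC complexes had 3 of 18 (16.7%, 3.58% to 41.4%), led by Commd3 (39.6 ± 5.0), Commd2 (10.2 ± 2.0) and Commd5 (6.22 ± 2.1; SD, n = 2 for each). Of 22 RAB effectors and phosphoinositide enzymes 3 were bound (13.6%, 2.91% to 34.9%). These were Rabep2 (37.4 ± 2.9), Appl2 (8.16 ± 0.58) and Rbsn (7.79 ± 0.42; SD, n = 2 for each), which all encode effectors of RAB5.

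The promoter table allowed the letters under the summits to be compared. Over all 21263 windows of 300 bases (250 before a start site and 50 from it on), TTCG was found on either strand in 49.1%. It was in 13 of the 15 windows of these families that held a summit (13 genes, Vps25 included), in 70 of 132 (53.0%) without one, and in 71.6% of the 1124 windows of other genes that held a summit. Within 50 bp of the replicate 2 summit, a shorter stretch, it was found at 5 of the 13 genes, namely Rab5a, Rab5if, Rab13, Vps16 and Vps52, and at 369 of the 1029 other genes whose windows held a summit. The windows of Rab5c and Vps18 held no TTCG at all. The unbound Rab5b held 1, beside its start site, as the printed stretch shows.

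A different string stood out when the printed stretches were read, and it was searched only after that, so its count in the bound genes of these families is no independent evidence. CGGAAG on either strand, which is also the core of sites known for ETS-family factors, was in all 15 windows that held a summit and in 27 of the 132 without one (20.5%). Within 50 bp of the replicate 2 summit it was found at 12 of the 13 genes, 0.5 bp from it at Vps16 and 2.5 bp at Rab24 and Rab5if, and at 765 of the 1029 other genes. The exception was Rab5c, where it lay 145.5 bp from the replicate 2 summit but 2.5 bp from that of replicate 1. At Rab11b it lay 41.5 bp from the replicate 2 summit but 57.5 bp, beyond the 50 bp, from that of replicate 1. The window of Rab5b held none. The other genes were not read beforehand: of their windows, 81.4% of the 1124 with a summit and 17.7% of the 19992 without one held CGGAAG, against 21.1% of all windows.

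Windows with a summit were also richer in CpG dinucleotides, with a median of 24 in these families and in other genes, against 20.5 and 12 in windows without a summit. The windows of these families held a median of 21, against 13 over all windows. Among windows with at least 10 CpG, 15 of 124 in these families held a summit (12.1%, 95% exact binomial interval 6.93% to 19.2%), against 9.24% of 11943 in other genes. Of those with CGGAAG it was 15 of 39 (38.5%, 23.4% to 55.4%), against 23.1% of 3899 in other genes. Of those without it, it was 0 of 85, which allows a share of up to 3.53% by the limit of 3 counts (exact binomial upper limit 4.25%), against 2.55% of 8044. The string was picked from stretches of these families, so the counts of 15 of 39 and 0 of 85 are no independent evidence. TTCG itself holds a CpG, and among windows of other genes with at least 10 CpG its contrast was smaller than that of CGGAAG. A summit lay in 10.4% of 7684 such windows with TTCG and in 7.23% of 4259 without it. In these families a summit lay in 13 of 77 and in 2 of 47. Windows of 1 gene can overlap, as 3 do at Vps52. A match is a string of letters and not a mapped site, and its part in the occupancy was not tested.

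**Figure D5:**
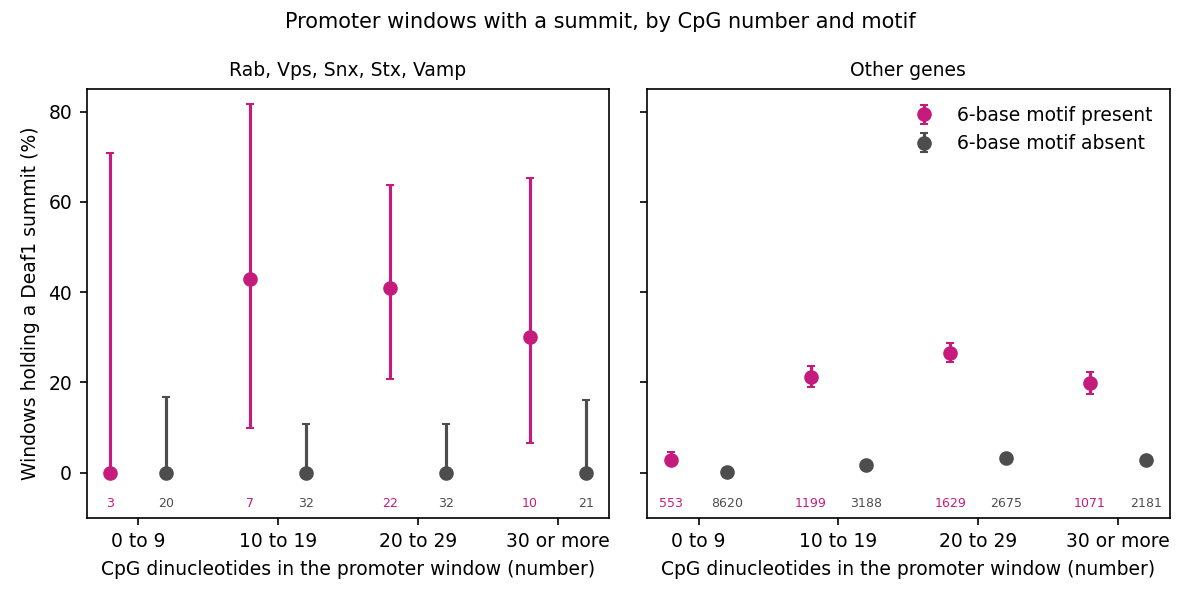
Share of promoter windows that hold a Deaf1 summit (%, vertical axis) by the number of CpG dinucleotides in the window (horizontal axis), for the 5 families (left) and all other genes (right), split by whether the 6-base string described in the text is present. Bars are 95% exact binomial intervals and the small figures the number of windows. The string was picked from stretches of these families, so the left panel is no independent evidence. In other genes with 20 to 29 CpG, 26.6% of windows with the string and 3.29% of those without it held a summit.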

How the data were processed

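ChIP-seq was made from C2C12 cells in 2 Deaf1 and 2 input libraries, and the peak list of each ChIP library and 1 combined list were used. No values of the inputs were analysed here. Per the submitters' processing notes, FastQC 0.11.8, BWA 0.7.17-r1198, MACS2 2.1.2 and the build mm10 were used, and filters are not given in the sources used here. The protocol mentions both formaldehyde fixation and native ChIP. The deposited fold enrichment is a ratio, ChIP fragments over those expected locally, and the authors' caller also gave −log10 p-values and q-values. The deposited score of a combined region encodes its IDR, so that 540 stands for 0.05. The combined list's 6 unnamed columns of single samples were not used.

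Pileup and background were recovered from fold and p by the caller's formula, fold = (pileup + 1)/(background + 1), with p a Poisson tail. For 100% of peaks exactly 1 whole number matched within 0.001 of −log10 p. Intervals (95%, exact) cover counting error only. Gene spans and promoters came from RefSeq on GRCm38.p6, the build of which mm10 is another name, and 121 genes outside assembled, sequenced chromosome parts were left out (those within 3 Mb of a chromosome's start or off the chromosomes). Coordinates are 1-based. Each combined region took the strongest overlapping peak of each replicate.

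The gene families, lists and named genes were chosen with earlier results of these data known. All bound members were named, and the 3 largest mean folds of each other list. With 1 group of 2 libraries there was no contrast between samples and no test was made. Alternatives covered single lists, stricter thresholds, other windows and other ways to assign regions. Python 3.11.15, pandas 2.3.3 and scipy 1.17.1 were used, and the scripts were tested on simulated data.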

Additional observations from a re-analysis of the deposited data

How the results depend on the processing

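Leaving out 1 replicate gave between 16 and 29 bound genes in place of 15, a ratio of their share to that of other genes between 1.39 and 1.69 in place of 1.40, and a median fold enrichment between 7.70 and 8.42 in place of 7.82. The higher counts came without replicate 1, from the longer list of replicate 2. At an IDR score of at least 540 the bound genes fell to 3, the ratio of shares turned to 0.62 and the median fold of the remaining regions rose to 11.7. The cause was not tested. Under each of the other alternatives (stricter q, windows of 500 bp and 5 kb, summits, whole spans, nearest gene only) the count stayed between 13 and 21 and the ratio between 1.35 and 1.66. A −log10 q of at least 5 in both replicates lost Rab5if and Snx29, and the nearest-gene rule lost Vps9d1. Start sites (ratio 1.67), windows with at least 10 CpG (1.31) and the string CGGAAG were added after seeing the data. No paired analysis was possible because no input values were analysed here and the ChIP libraries form 1 group. Summits of 14 to 47 fragments leave wide counting errors.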
